A study of Mus musculus with 6 samples.

Results

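The pentose phosphate pathway and the cytosolic enzymes that make NADPH were followed in 3T3-L1 adipocytes forced to express uncoupling protein 1 (UCP1). The set was chosen by name as 10 genes, G6pdx, H6pd, Pgls, Pgd, Rpia, Rpe, Tkt, Taldo1, Me1 and Idh1. A probe counted when the platform annotation gave it exactly 1 gene symbol equal to a member, which found 9 probes for 8 genes among 36227 probes on the array. H6pd had 2 probes and the other genes 1 each, while G6pdx and Pgd had none and were not analysed here.

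3T3-L1 is a mouse preadipocyte line that becomes fat-storing when treated with an adipogenic mixture. The series held 3 arrays of adipocytes expressing UCP1 and 3 arrays of adipocytes with the Tet-off plasmid alone, which encodes a tetracycline-controlled transcription activator, all taken 10 days after differentiation. The labels leave unstated which promoter drove UCP1, whether a line was 1 clone or a pool, whether a tetracycline was given, and whether replicate arrays stand for separate cultures. The p-values therefore reflect array-to-array spread alone, and that spread may be purely technical.

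Glucose 6-phosphate that is not burned in glycolysis can enter the pentose phosphate pathway. Its oxidative branch strips carbon from the sugar and hands electrons to NADP, making NADPH, and its non-oxidative branch reshuffles the resulting pentose phosphates into ribose for nucleotides or back into glycolytic sugars. Fat cells spend NADPH on fatty acid synthesis and on glutathione and thioredoxin reduction, and they also obtain it from malic enzyme and isocitrate dehydrogenase in the cytosol. UCP1 lets protons return to the mitochondrial matrix without making ATP.

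The readings below are deposited linear spot intensities, relative to the array. Array medians lay between 1.04 and 1.05 and log2 values of the 18058 brighter probes correlated at r = 0.985 to 0.992 among UCP1 arrays, 0.993 to 0.995 among Tet-off arrays and 0.976 to 0.988 between groups. The UCP1 arrays had less signal at the top of the scale, with a 99th percentile of 185 to 225 against 255 to 279 on the Tet-off arrays, and UCP1 array 3 had the lowest. Ucp1 itself read 2.34, 2.02 and 1.54 on the UCP1 arrays and 0.222, 0.232 and 0.278 on the Tet-off arrays, a log2 difference of 3.00 ± 0.234 (SE; limma, adjusted p = 0.00013). The Tet-off readings were near the bottom of the scale, where adding 0.125 to every value before log2 gave 2.49, so the direction is firmer than the size. All 6 measured adipocyte markers read above at least 63.2% of the probes on every array. Several preadipocyte and fibroblast markers did so too, such as Col3a1 and Dcn, while Thy1 and Cd34 did not. The series held no undifferentiated cells to set beside these levels. In these bulk samples fewer cells of a type and less RNA per cell cannot be told apart.

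Of the 8 genes, Pgls fell in UCP1 adipocytes and the other 7 did not pass the test. On the log2 scale 7 lay below 0 and 1 above, from -0.64 for Idh1 to 0.38 for Rpe, with a median of -0.34. Across all 18014 genes represented by their brightest probe, 60.1% lay below 0 with a median of -0.08. Among the 3135 genes at least as bright as the dimmest member, 79.4% lay below 0 with a median of -0.17. The share of members below 0 was near that share in the deposited scaling. After quantile normalization 7 of 8 members still lay below 0, with a median of -0.14. Of the 3135 genes 45.1% then did so, with a median of 0.03. In the deposited scaling 1 of the 8 genes passed the test and was lower, Pgls (limma, Benjamini-Hochberg adjustment over all probes, threshold 0.05). The background was 2.92% of genes called lower. No member was called higher, against 1.13% of genes called higher. Of the 8 members 6 had an unadjusted p under 0.05 (limma), against 20.8% of genes. Among the 3135 genes at least as bright as the dimmest member, 854 had such a p, 116 were called lower and 23 higher. All UCP1 arrays lay below all Tet-off arrays for 3 genes, Pgls, Rpia and Taldo1, where 17.1% of genes did so. The reverse held for Rpe alone, where 8.09% of genes did so. Both shares are over all genes, and neither was computed for genes at least as bright as the dimmest member. The number called lower was 2 without UCP1 1 or without UCP1 2 and 0 without UCP1 3 or any single Tet-off array. After quantile normalization 0 were called lower and 1, Rpe, was called higher.

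**Figure D1:**
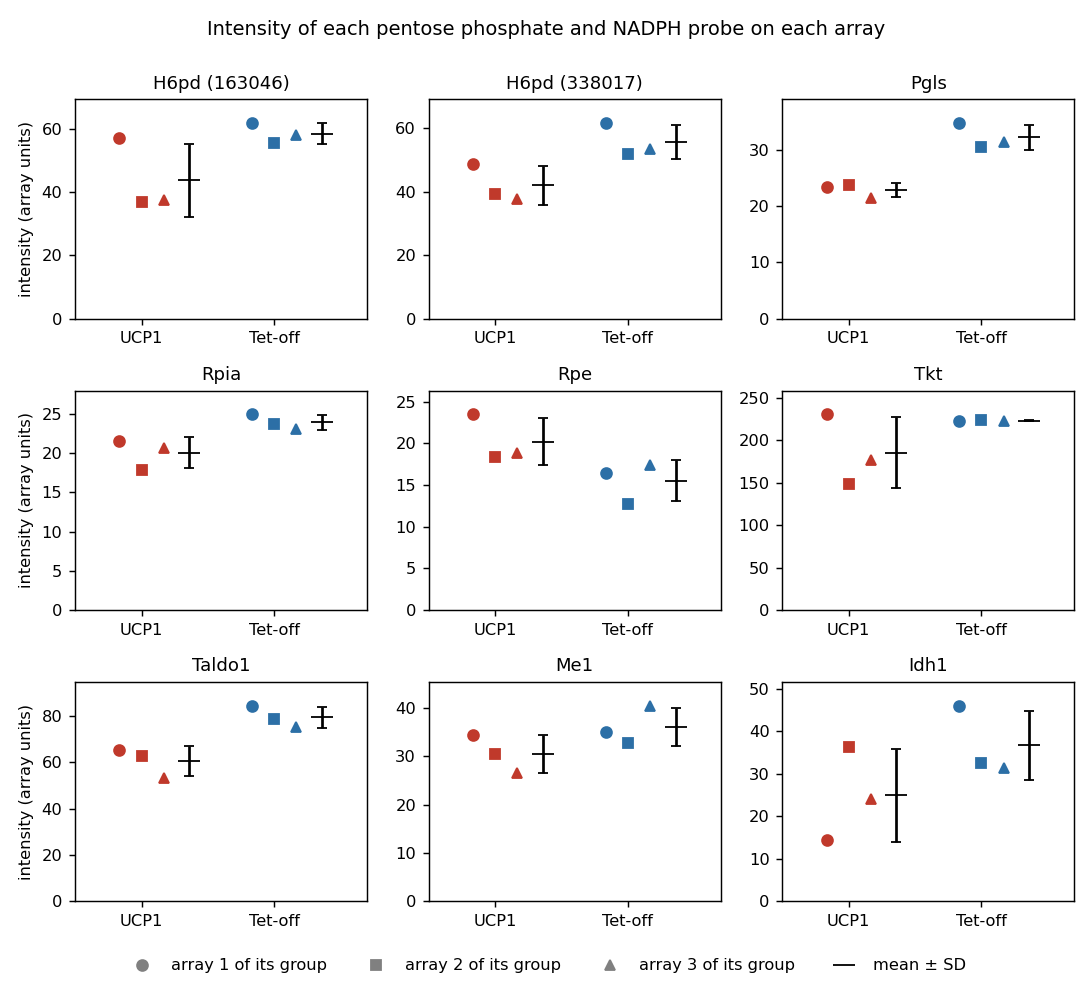
Intensity in array units (y axis, from 0) of each of the 9 probes on the UCP1 arrays (red) and the Tet-off arrays (blue), with symbols for the array of each group and a bar for mean ± SD. The groups part completely for H6pd probe 338017, Pgls, Rpia, Rpe and Taldo1, and overlap for H6pd probe 163046, Tkt, Me1 and Idh1.

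In the oxidative branch, the lower level was clearest for Pgls, which encodes 6-phosphogluconolactonase, the enzyme that opens the lactone ring formed by glucose-6-phosphate dehydrogenase. Pgls read 23.3, 23.7 and 21.5 on the UCP1 arrays and 34.7, 30.5 and 31.3 on the Tet-off arrays. The groups did not overlap, and the 3 UCP1 readings lay closer together than the 3 Tet-off readings. The means were 22.8 ± 1.21 (SD, n = 3) in UCP1 adipocytes and 32.2 ± 2.26 (SD, n = 3) in Tet-off adipocytes. Pgls fell by 29.0%, a difference of -0.49 ± 0.114 (SE) on the log2 scale that passed the test (limma, adjusted p = 0.0426). After quantile normalization it was -0.35 and no longer passed (adjusted p = 0.0776). It did not pass with any single Tet-off array left out (adjusted p = 0.189, 0.114 and 0.105 without Tet-off 1, 2 and 3) or without UCP1 3 (0.182), and passed without UCP1 1 (0.0265) and UCP1 2 (0.0351), while the difference itself stayed between -0.53 and -0.44.

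The Pgls gene lies on chromosome 8, at 71592184 to 71596267 of GRCm38.p6. The 250 bases before its RefSeq start, at chr8:71591934-71592183 on the plus strand, are shown because Pgls was the member that passed the test. They are 64.4% G or C and hold 25 CG pairs.

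Pgls: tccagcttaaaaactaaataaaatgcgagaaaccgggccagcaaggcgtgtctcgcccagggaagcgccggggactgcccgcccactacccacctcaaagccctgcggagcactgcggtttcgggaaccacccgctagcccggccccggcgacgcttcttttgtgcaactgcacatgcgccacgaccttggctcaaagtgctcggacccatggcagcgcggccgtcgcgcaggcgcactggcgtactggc

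H6pd encodes hexose-6-phosphate dehydrogenase, which carries out the first steps of the oxidative branch inside the endoplasmic reticulum, apart from the cytosolic pathway, and supplies NADPH there to the steroid reductase encoded by Hsd11b1. Its brighter probe (163046) read 57.2, 36.8 and 37.5 on the UCP1 arrays and 61.9, 55.5 and 58.2 on the Tet-off arrays. UCP1 array 1 lay within the Tet-off readings, and the other UCP1 arrays lay below them. Its other probe (338017) read 48.8, 39.1 and 37.8 on the UCP1 arrays and 61.6, 51.8 and 53.4 on the Tet-off arrays, so that all UCP1 arrays were lower, again with array 1 nearest to the Tet-off readings. The differences, -0.45 ± 0.169 and -0.41 ± 0.140 (SE) on the log2 scale, did not pass (limma, adjusted p = 0.191 and 0.144). Without UCP1 array 1 they were -0.65 and -0.53 and both passed (limma, adjusted p = 0.0110 and 0.0289). Over all probes 1610 were called lower in that fit, against 732 with all arrays. With any other single array left out neither passed (limma, adjusted p 0.302 to 0.490 for 163046 and 0.241 to 0.427 for 338017). Neither passed after quantile normalization (limma, adjusted p = 0.257 and 0.179). Hsd11b1, the partner gene, read 141, 153 and 125 on the UCP1 arrays and 176, 148 and 151 on the Tet-off arrays, with overlapping groups (limma, adjusted p = 0.619).

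In the non-oxidative branch no gene passed the test in the deposited scaling. Rpe encodes ribulose-5-phosphate epimerase, which turns ribulose 5-phosphate into xylulose 5-phosphate, a substrate of transketolase. Rpe read 23.5, 18.3 and 18.8 on the UCP1 arrays and 16.4, 12.7 and 17.4 on the Tet-off arrays. Every UCP1 reading was above every Tet-off reading, with UCP1 array 1 highest and Tet-off array 2 lowest. The means were 20.2 ± 2.84 (SD, n = 3) in UCP1 adipocytes and 15.5 ± 2.48 (SD, n = 3) in Tet-off adipocytes, a difference of 0.38 ± 0.146 (SE) on the log2 scale that did not pass (limma, adjusted p = 0.197). After quantile normalization the difference was 0.53, with a 95% interval of 0.28 to 0.78, and passed (limma, adjusted p = 0.0409), so the call for this gene depended on how the arrays were scaled. With single arrays left out it ranged from 0.25 to 0.47 and passed in no case.

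Rpe lies on chromosome 1, at 66700797 to 66719805 of GRCm38.p6. The 250 bases before one of its RefSeq starts, at chr1:66700581-66700830 on the plus strand, are shown because Rpe was the only member above 0. They are 57.2% G or C, with 10 CG pairs.

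Rpe: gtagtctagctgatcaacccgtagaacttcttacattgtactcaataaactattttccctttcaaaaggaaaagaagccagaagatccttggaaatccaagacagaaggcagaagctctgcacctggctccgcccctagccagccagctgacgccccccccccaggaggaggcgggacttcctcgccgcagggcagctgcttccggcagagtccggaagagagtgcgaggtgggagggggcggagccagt

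Rpia encodes ribose-5-phosphate isomerase, which converts the same ribulose 5-phosphate into ribose 5-phosphate for nucleotide synthesis. It read 21.6, 17.9 and 20.7 on the UCP1 arrays and 25.0, 23.7 and 23.1 on the Tet-off arrays. The UCP1 arrays were all lower by a small margin, with a log2 difference of -0.26 ± 0.116 (SE; limma, adjusted p = 0.281). Both enzymes act on ribulose 5-phosphate, and their probes lay on opposite sides of 0 under both scalings, at -0.10 for Rpia and 0.53 for Rpe after quantile normalization. Whether their differences differ from each other was not tested.

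Taldo1, the transaldolase that moves 3-carbon units between sugar phosphates, read 65.4, 62.8 and 53.3 on the UCP1 arrays and 84.4, 78.6 and 75.2 on the Tet-off arrays. The groups were separated, and the difference of -0.40 ± 0.135 (SE) on the log2 scale did not pass (limma, adjusted p = 0.146). It was -0.17 after quantile normalization.

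Tkt, the transketolase that moves 2-carbon units with thiamine diphosphate as cofactor, read 230, 149 and 176 on the UCP1 arrays and 222, 223 and 222 on the Tet-off arrays. The Tet-off readings were almost identical, and the UCP1 readings spread on both sides of them. The SD was 41.5 in UCP1 adipocytes and 0.697 in Tet-off adipocytes (n = 3 each), around means of 185 and 223. The difference of -0.29 ± 0.188 (SE) on the log2 scale did not pass (limma, adjusted p = 0.487), and it was -0.46 without UCP1 array 1, -0.14 without UCP1 array 2 and -0.03 after quantile normalization.

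**Figure D2:**
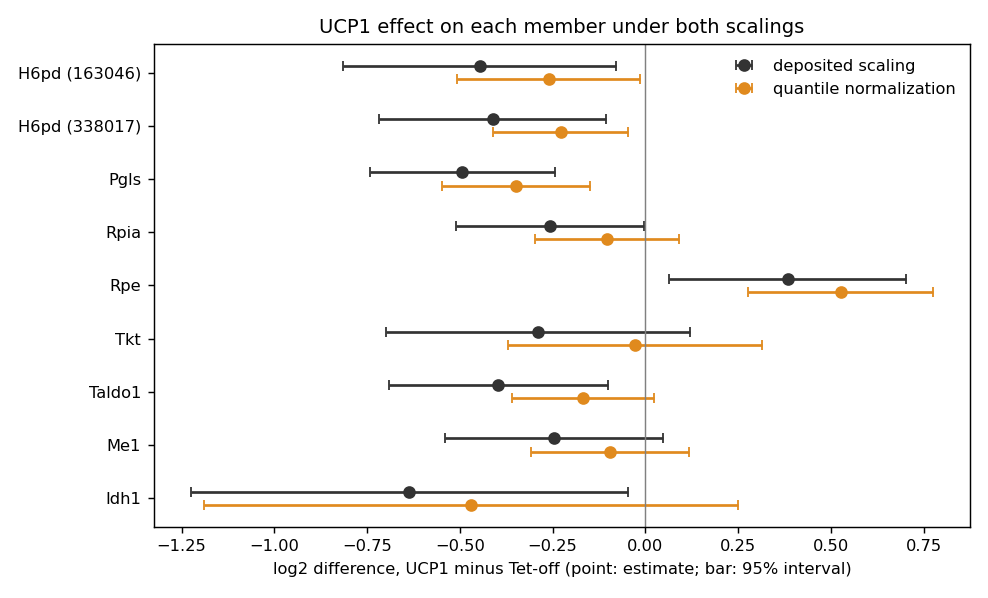
Log2 difference, UCP1 minus Tet-off (x axis), of each probe with its 95% interval from limma, in the deposited scaling (black) and after quantile normalization (orange). Quantile normalization moved every point to the right, leaving Tkt at -0.03 and Rpe at 0.53.

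Outside the pathway, Me1 encodes the cytosolic malic enzyme, which makes NADPH while turning malate into pyruvate and is a classic lipogenic gene of fat cells. Me1 read 34.3, 30.5 and 26.5 on the UCP1 arrays and 35.0, 32.7 and 40.4 on the Tet-off arrays. The groups overlapped through UCP1 array 1, which lay above Tet-off array 2. The difference was -0.25 ± 0.135 (SE) on the log2 scale, with a 95% interval of -0.54 to 0.05 (limma, adjusted p = 0.395).

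A short stretch of the Me1 promoter is shown because it holds the only match among the members to the motifs searched, TGACNNNGC, the core of the antioxidant response element bound by the oxidative stress regulator encoded by Nfe2l2, and CACGTG, an E-box. Both strands of RefSeq windows of 300 bases were read, each with 250 bases before a gene's start, giving 10 windows for the 8 genes. The first motif matched 1 of these 10 windows and 12.4% of all 32851 windows, and the second 0 of 10 and 7.15%. The stretch lies at chr9:86695912-86695970 of GRCm38.p6 on the minus strand, with the match in capitals, from 6 bases before the start to the base 3 after it.

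Me1: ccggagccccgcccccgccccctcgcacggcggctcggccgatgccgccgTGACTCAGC

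Idh1 encodes the cytosolic and peroxisomal isocitrate dehydrogenase, which makes NADPH while turning isocitrate into 2-oxoglutarate. On the log2 scale it had the largest estimate of the 8 genes and the widest range among the UCP1 arrays. Idh1 read 14.3, 36.3 and 24.1 on the UCP1 arrays and 46.0, 32.5 and 31.5 on the Tet-off arrays. UCP1 array 2 lay within the Tet-off readings, and UCP1 arrays 1 and 3 lay below them. The difference of -0.64 ± 0.270 (SE) on the log2 scale did not pass (limma, adjusted p = 0.252). It was -0.29 without UCP1 array 1 and -0.96 without UCP1 array 2, where it passed (limma, adjusted p = 0.0218). With any other single array left out it did not pass (limma, adjusted p between 0.274 and 0.553).

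The members thus differed in which UCP1 array stood apart. Relative to the mean of the Tet-off arrays, UCP1 array 1 was at -0.03 for H6pd probe 163046, 0.05 for Tkt and -0.07 for Me1 on the log2 scale, and at -1.33 for Idh1. UCP1 array 2 was at -0.67 for the same H6pd probe and -0.58 for Tkt, and at 0.01 for Idh1. UCP1 array 3, the array with the lowest top of the scale, was below the Tet-off mean for each member but Rpe. For Pgls and Taldo1 all UCP1 arrays were low, at -0.46, -0.44 and -0.58 for Pgls and -0.28, -0.34 and -0.58 for Taldo1. The median over the 8 genes was -0.11, -0.38 and -0.51 on UCP1 arrays 1, 2 and 3.

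**Figure D3:**
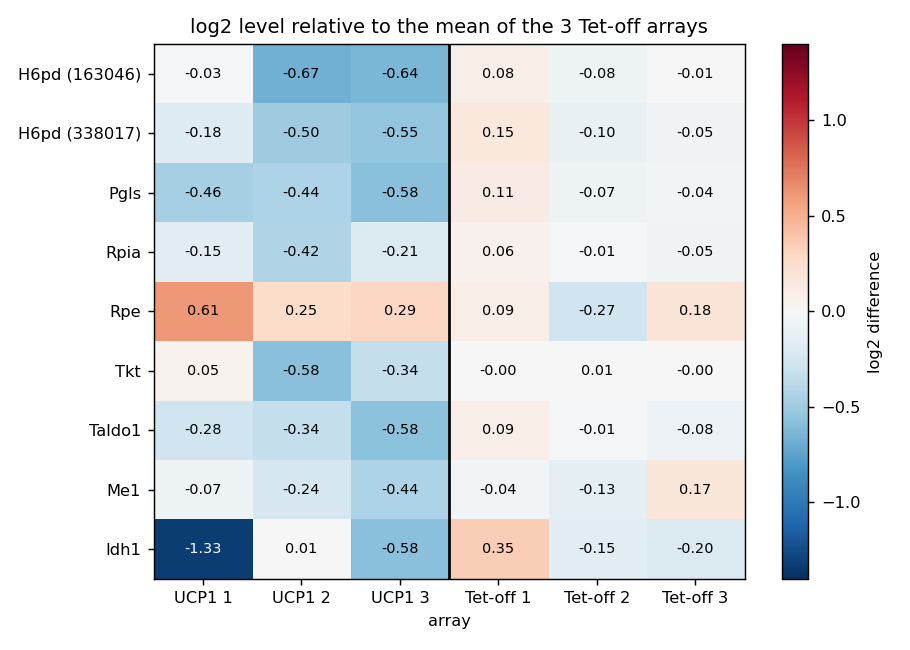
Log2 level of each probe (rows) on each array (columns, UCP1 left of the line, Tet-off right of it) relative to the mean of the 3 Tet-off arrays, with blue lower and red higher. Idh1 at -1.33 on UCP1 array 1 and Rpe at 0.61 on the same array are the extremes.

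The genes around the pathway were read in 6 lists. Over all genes 2.92% were called lower, 1.13% were called higher, and 20.8% had an unadjusted p under 0.05 (limma). Of 10 other genes of pentose and ribose phosphate metabolism, 0 passed the test in either direction (limma; 3 of 10 at an unadjusted p under 0.05), with a median log2 difference of -0.22. Dera, the deoxyribose-phosphate aldolase, read 5.07, 6.16 and 4.99 on the UCP1 arrays and 7.51, 6.77 and 7.59 on the Tet-off arrays, without overlap (limma, adjusted p = 0.0827, and 0.0261 without UCP1 2). Dera passed with no other single array left out. Prps1, the synthetase that makes phosphoribosyl pyrophosphate from ribose 5-phosphate, went the other way, at 26.3, 19.5 and 21.1 on the UCP1 arrays and 18.0, 16.7 and 14.7 on the Tet-off arrays. Its difference of 0.43 did not pass (limma, adjusted p = 0.117), and at 0.57 after quantile normalization it passed (adjusted p = 0.0152).

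Of 12 other genes of NADPH and NADP supply, 10 were measured, 1 fell and 0 rose, with a median of -0.36. The gene that fell was Aldh1l2, the mitochondrial formyltetrahydrofolate dehydrogenase, which makes NADPH from folate-bound carbon. It read 4.07, 4.71 and 4.41 on the UCP1 arrays and 8.11, 7.58 and 11.8 on the Tet-off arrays. The difference of -1.03 ± 0.160 (SE) was 2.05-fold lower (Tet-off over UCP1, limma, adjusted p = 0.00736), and the call was lost without UCP1 3 (adjusted p = 0.0696). Without UCP1 1 or without UCP1 2, 2 genes of this list passed.

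The citrate and malate supply list holds the carriers and enzymes that feed the cytosolic malic enzyme and isocitrate dehydrogenase. All 8 genes of the list lay below 0, with a median of -0.52, and after quantile normalization 5 of 8 lay below 0 with a median of -0.41. Of all genes 60.1% lay below 0 in the deposited scaling and 49.0% after quantile normalization. Of genes at least as bright as the dimmest member 79.4% and 45.1% did so. In the list Slc25a1, the mitochondrial citrate exporter, was the 1 that fell, and 0 rose. It read 42.7, 48.1 and 35.6 on the UCP1 arrays and 81.6, 68.5 and 65.9 on the Tet-off arrays, 1.71-fold lower (Tet-off over UCP1, limma, adjusted p = 0.0199). That call was lost without UCP1 3, Tet-off 1 or Tet-off 2, at adjusted p between 0.0611 and 0.103, with 0 genes of the list then called, and 5 passed without UCP1 2.

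Of 12 genes listed for NADPH-using lipid synthesis, 10 were measured, 1 fell and 1 rose, with a median of -0.29. The desaturase Scd2 read 69.7, 118 and 79.7 on the UCP1 arrays and 188, 148 and 146 on the Tet-off arrays (limma, adjusted p = 0.0418). The elongase Elovl6 read 17.1, 13.3 and 12.7 on the UCP1 arrays and 9.32, 8.93 and 10.7 on the Tet-off arrays (limma, adjusted p = 0.0476). Neither enzyme uses NADPH in its own step, since desaturases draw electrons through cytochrome b5 and Elovl6 joins the carbon units before the reductions. Both calls were lost without UCP1 3, Tet-off 1 or Tet-off 2, at adjusted p = 0.178, 0.176 and 0.0975 for Scd2 and 0.128, 0.158 and 0.158 for Elovl6. Without Tet-off 3 they were 0.0741 and 0.0622, where another gene of the list passed, and without UCP1 1 Scd2 was at 0.0573. Without UCP1 2, 3 genes of the list were called lower. Fasn, the fatty acid synthase that is the main consumer of cytosolic NADPH in lipogenesis, was measured at -0.27 ± 0.159 (SE, limma, adjusted p = 0.441).

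Of 13 NADPH-using redox genes, 8 were measured, 2 fell and 0 rose, with a median of -0.20. Cbr1, a carbonyl reductase, read 1.96, 2.21 and 1.82 on the UCP1 arrays and 3.78, 3.47 and 3.22 on the Tet-off arrays, 1.75-fold lower (Tet-off over UCP1, limma, adjusted p = 0.0107). Txnrd2, the mitochondrial thioredoxin reductase, read 4.48, 4.49 and 4.13 on the UCP1 arrays and 7.72, 7.18 and 7.10 on the Tet-off arrays, 1.68-fold lower (Tet-off over UCP1, limma, adjusted p = 0.00581). The groups overlapped for neither gene, and both calls were lost without UCP1 3 (adjusted p = 0.0915 and 0.0625). Txnrd1, the cytosolic thioredoxin reductase, was measured at 0.03 ± 0.137 (SE).

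Of 12 regulators of NADPH genes 11 were measured, and 0 passed in either direction (limma; 4 of 11 at an unadjusted p under 0.05), with a median of -0.21. The smallest p-values were those of the sterol regulator Srebf2, at -0.52 (limma, adjusted p = 0.143, and 0.0277 without UCP1 2), and of Keap1, which marks the Nfe2l2 protein for degradation, at -0.32 (limma, adjusted p = 0.149). Srebf2 passed with no other single array left out, and Keap1 with none. Nfe2l2 itself read 29.2, 32.0 and 26.6 on the UCP1 arrays and 35.5, 32.9 and 32.9 on the Tet-off arrays.

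**Figure D4:**
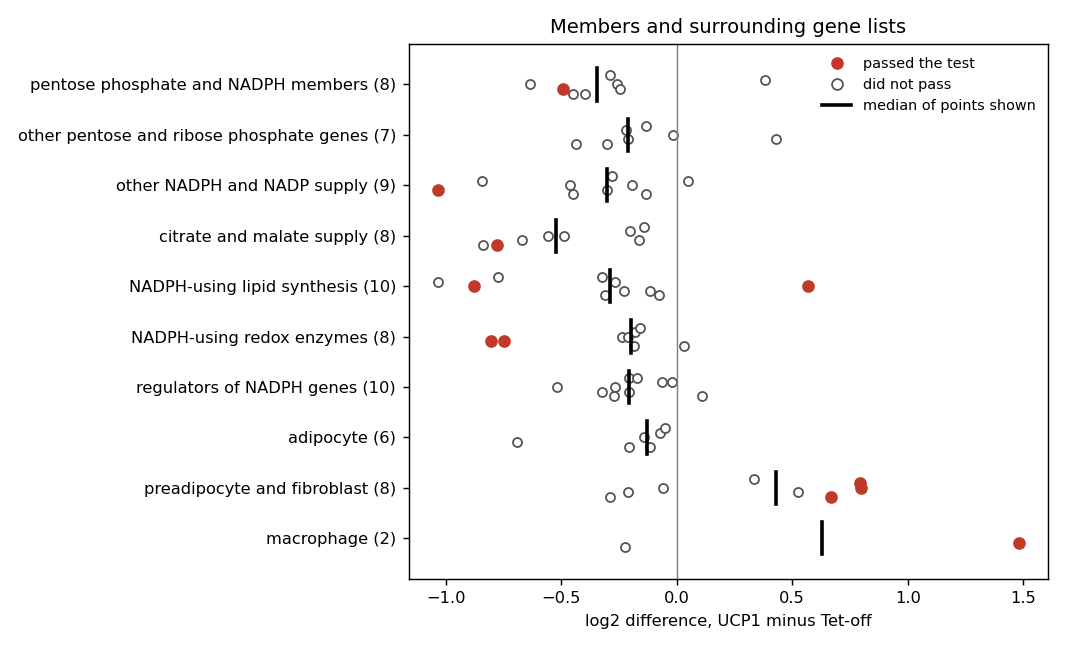
Log2 difference, UCP1 minus Tet-off (x axis), of the 8 members and of the genes in each list (rows, number of genes plotted in brackets), with filled red points for genes that passed the test and a bar for the median of the points shown. Genes that read below 20% of the probes on any array are not plotted, and the members' median of -0.34 lies between those of the citrate list and of the redox list.

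Markers of other cells were read beside these results. Over all genes 1.13% were called higher and 2.92% lower. Of 9 preadipocyte and fibroblast markers 8 were measured, 3 rose and 0 fell, namely Dcn, Thy1 and Pdgfra, at 0.79, 0.80 and 0.67 on the log2 scale, and the median of the list was 0.43. The second probe of Dlk1 (128068) also rose, 2.12-fold (limma, adjusted p = 0.00526), while its brighter probe did not pass (0.323). The second, much dimmer probe of Pdgfra (240016) was at 0.16 and did not pass (limma, adjusted p = 0.851). The summed intensity of the list was 788 to 1021 on the UCP1 arrays and 727 to 977 on the Tet-off arrays, most of it from Col3a1, which read 511 to 669 on the UCP1 arrays and 532 to 734 on the Tet-off arrays. The 6 measured adipocyte markers summed to 2278 to 3215 on the UCP1 arrays and 2849 to 3262 on the Tet-off arrays, with 0 of 6 called. Most of that sum came from Adipoq, Lpl and Fabp4, which read at or near the top of the scale. The highest reading of any probe was 950, 921 and 683 on UCP1 arrays 1, 2 and 3 and 932 to 943 on the Tet-off arrays. It was that of Lpl on UCP1 array 1 and of Adipoq on UCP1 array 2. Whether readings so near the top can show a difference was not tested. All 6 adipocyte markers lay below 0, from -0.69 for Cebpa to -0.05 for Lpl, where 60.1% of all genes did so. Of genes at least as bright as the dimmest member, as all of these but Cebpa were, 79.4% did so. After quantile normalization 1 of 6 lay below 0. Of 6 measured macrophage markers 4, among them Adgre1 and Ptprc, read below the array median on every array, while Lyz2 rose, at 2.46, 3.98 and 2.67 on the UCP1 arrays and 1.34, 1.08 and 0.830 on the Tet-off arrays. The macrophage markers summed to 14.2 to 15.1 on the UCP1 arrays and 11.2 to 16.8 on the Tet-off arrays. Most of that sum came from Cd14, which read 11.4, 10.5 and 10.6 on the UCP1 arrays and 13.9, 14.4 and 9.99 on the Tet-off arrays. Its difference of -0.22 did not pass (limma, adjusted p = 0.482). The part of these markers, and of the lower top of the scale on the UCP1 arrays, in the members' differences was not tested.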

How the data were processed

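The authors deposited linear spot intensity, 1 column per CodeLink array, with array medians close to each other, as read from the values. The scanner software, background correction and scaling method were not stated in the labels. The code -9999 was taken as missing. Intensities were put on the log2 scale, with the array's lowest positive value put in place of any value at or below 0. Probes with at least 2 values per group were tested, 36116 in all, with limma 3.58.1 in R 4.3.3 (lmFit, eBayes with intensity trend, two-sided, Benjamini-Hochberg over all probes, threshold 0.05). Genes with several probes were counted by the one brightest on average (log2). The functions were tested on simulated arrays. Groups came from the source field of the labels, which names uncoupling protein 1 for each UCP1 array. The titles of these arrays end in UCP1, UCP2 and UCP3. The last digit was taken as the array number, though it could also be read as part of a protein name. The members and lists were chosen with earlier results of these data known. Named genes were all members, Ucp1 and, per list, up to 4 called genes with the largest change or the 2 with the smallest p. Hsd11b1, Fasn, Txnrd1, Nfe2l2, Acly, Nnt, Sqle, Nqo1, Pgm2, Tktl2 and the marker genes were named after their values were seen. Gene identifiers of 8 of 8 members matched RefSeq, whose GRCm38.p6 tables gave coordinates and promoter sequences, as the labels name no build. The planned comparison of G6pdx with H6pd was not run, as G6pdx had no probe.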

Additional observations from a re-analysis of the deposited data

How the results depend on the processing

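Of the 9 member probes, all kept their direction under an offset of 0.125 (the 5th percentile of positive values) added before log2, quantile normalization, the brighter probes only, eBayes without the trend, robust eBayes, the replicate block and each array left out. Quantile normalization gave 1 member called higher (Rpe) and 0 lower, and 0 were called lower without the trend (Pgls adjusted p = 0.265) or with the replicate block (0.0646). With single arrays left out 0 to 2 members were called lower. Over all probes 289 were called higher and 732 lower, against 567 and 446 with quantile normalization, 523 and 1716 on the brighter probes and 0 and 0 without the trend, and 66 to 395 higher and 93 to 1610 lower with single arrays left out. The median over all genes moved to 0.01 under quantile normalization. Then 87.5% of members, 49.0% of genes and 45.1% of genes at least as bright as the dimmest member lay below 0. Ucp1, at 3.00, lost its call without the trend (adjusted p = 0.0855).

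In the other pentose list 1 gene was called higher with quantile normalization, 1 lower on the brighter probes and 0 to 1 lower with single arrays left out. Without the trend 0 genes were called in any list. On the brighter probes 3 were called lower in the citrate list and 3 in the lipid synthesis list. In the lipid list 0 were called lower with quantile normalization, and 0 in either direction with the replicate block. With single arrays left out the calls lower were 0 to 2 for NADPH supply, 0 to 5 for citrate, 0 to 3 for lipid synthesis (0 to 1 higher), 0 to 3 for redox and 0 to 1 for regulators.

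The array numbers shared by the groups, taken from the last digit of the titles, are not shown to pair cultures. Deviations of same-numbered arrays from their group means correlated at -0.24, -0.01 and 0.10, and 1 of 3 UCP1 and 0 of 3 Tet-off arrays correlated best with their own number. With the replicate block 225 probes were called higher and 551 lower. Precision is limited by the 3 arrays in each group, and the cause of the lost calls was not tested.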

Other observations

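The spread of single members among replicate arrays was set against 3127 genes with values on all arrays that were at least as bright as the dimmest member. The measure was chosen after the members' values were seen. The range of log2 values over the 3 UCP1 arrays was 1.34 for Idh1, and 5 of the 3127 genes, Idh1 among them, had a range at least as wide. The median range was 0.39 on the UCP1 arrays and 0.17 on the Tet-off arrays. UCP1 array 2 was at least 2-fold above UCP1 array 1 for 7 of the 3127 genes, Idh1 among them, and at least 2-fold below it for 7. Acly, the citrate lyase, and Nnt, the mitochondrial transhydrogenase, both dimmer than that set, also read higher on UCP1 array 2 than on UCP1 array 1, by 1.54 and 1.78 on the log2 scale. Acly read 3.16, 9.18 and 5.63 on the UCP1 arrays and 13.4, 9.05 and 7.69 on the Tet-off arrays, and Nnt read 1.42, 4.86 and 2.33 on the UCP1 arrays and 5.86, 4.80 and 3.31 on the Tet-off arrays. Other dim genes of the lists also rose from UCP1 array 1 to array 2, at 8.57 and 20.7 for Col1a1, 0.833 and 1.84 for Sqle and 1.06 and 2.33 for Nqo1. Near the floor Pgm2, Tktl2 and Ptprc went the other way, at 0.487 and 0.248, 0.414 and 0.189, and 0.179 and 0.0554. No share was computed over genes as dim as these. At the other end, the 3 Tet-off readings of Tkt spanned 0.0087 on the log2 scale. Of the 3127 genes 4, Tkt among them, had a span no wider than that.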
